A study of Mus musculus with 24 samples.

Results

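Type IV collagen is encoded in the mouse by 6 genes, Col4a1 to Col4a6, and all 6 were found by symbol among the 78298 genes of the deposited tables. They were chosen by the level of Col4a4, which was higher in granulosa cells with blebbistatin, so values from those libraries against the others are a description with no test. Expression was measured by RNA sequencing in wild-type mouse ovarian follicles grown in alginate, a polysaccharide gel, and sampled on day 3 of culture in medium with 10% serum and 50 mIU/ml FSH. The 6 groups, of 4 libraries each, were oocytes of follicles grown with blebbistatin, oocytes grown with dextran, oocytes of control cultures, and granulosa cells of the same 3 conditions. Blebbistatin, an inhibitor of the motor protein myosin II, was used at 20 µM, and dextran, a polysaccharide that compresses a follicle osmotically, at 10 kPa. Only follicles past 180 µm were taken apart, by hand, so the granulosa cells were not sorted. Each oocyte library held 1 to 2 oocytes, and each granulosa cell library a pool of many cells. The replicates are labelled biological, with no animal or culture named for any of them, so p-values measure the spread between these libraries, which may be technical. Whether control cultures received the vehicle of the inhibitor is not stated.

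Type IV collagen is the network-forming collagen of basement membranes. Its chains assemble inside the cell into heterotrimers, of which the Col4a1 and Col4a2 form is found in nearly all basement membranes, while a form made of the Col4a3, Col4a4 and Col4a5 chains and a form made of the Col4a5 and Col4a6 chains are restricted to some tissues. In the ovary the follicular basal lamina, which contains type IV collagen, separates the granulosa cells from the theca and its vessels. In humans, variants of COL4A3, COL4A4 and COL4A5 cause Alport syndrome, a kidney disease of the glomerular basement membrane.

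The 6 genes lie as 3 head-to-head pairs on opposite strands, Col4a1 with Col4a2 on chromosome 8, Col4a4 with Col4a3 on chromosome 1, and Col4a6 with Col4a5 on chromosome X. In GENCODE M21 (build GRCm38) the starts of the first pair lie 21 bases apart with overlapping 5′ ends, those of the second 72 bases apart and those of the third 1309 bases apart. The sequences below are RefSeq promoter windows (GRCm38.p6) of 250 bases before to 50 bases after the start, which 5 of the 6 chains matched by symbol, all except Col4a3. They are shown for the pairs whose members are set side by side in what follows. Capitals mark, for Col4a1 (chr8:11312777-11313076, minus strand) and Col4a2 (chr8:11312555-11312854, plus strand), the 78 bases that both windows hold, each as the reverse complement of the other. For Col4a4 (chr1:82586800-82587099, minus strand) they mark the 73 bases from the annotated Col4a3 start to the Col4a4 start, both included.
Col4a1: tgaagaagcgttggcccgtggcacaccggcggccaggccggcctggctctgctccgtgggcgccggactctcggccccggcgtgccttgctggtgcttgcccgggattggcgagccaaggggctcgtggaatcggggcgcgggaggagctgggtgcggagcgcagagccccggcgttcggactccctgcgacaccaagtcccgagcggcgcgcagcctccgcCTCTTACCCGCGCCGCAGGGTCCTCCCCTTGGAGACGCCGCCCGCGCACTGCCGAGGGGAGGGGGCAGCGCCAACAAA
Col4a2: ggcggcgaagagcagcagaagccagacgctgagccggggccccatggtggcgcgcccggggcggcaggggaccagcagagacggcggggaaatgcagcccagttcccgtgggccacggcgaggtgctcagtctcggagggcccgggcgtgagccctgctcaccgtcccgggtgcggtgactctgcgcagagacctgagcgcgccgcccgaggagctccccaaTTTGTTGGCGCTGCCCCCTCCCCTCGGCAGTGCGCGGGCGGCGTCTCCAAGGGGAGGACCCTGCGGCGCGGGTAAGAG
Col4a4: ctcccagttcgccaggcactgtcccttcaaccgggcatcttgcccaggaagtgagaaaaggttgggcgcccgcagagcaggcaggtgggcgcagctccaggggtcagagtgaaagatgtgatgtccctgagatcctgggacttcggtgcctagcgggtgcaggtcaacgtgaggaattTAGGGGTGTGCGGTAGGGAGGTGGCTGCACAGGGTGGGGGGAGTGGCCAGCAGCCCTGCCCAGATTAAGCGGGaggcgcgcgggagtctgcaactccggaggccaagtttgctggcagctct
The Col4a1 window had a GC content of 74.0%, the Col4a2 window 73.7%, the Col4a4 window 63.3%, the Col4a5 window 52.7% and the Col4a6 window 48.3%, against a median of 52.7% over 32851 windows of that length. A search of both strands found GGGCGG, the GC box, 1 time in the Col4a1 window, 3 times in Col4a2 and 1 time each in Col4a5 and Col4a6, and 35.7% of all windows hold it. CCAAT was found 1 time each in the Col4a1, Col4a2 and Col4a5 windows, and 37.4% of all windows hold it. TATAAA (13.6% of all windows), TGACTCA (5.2%) and the CArG box (1.63%) were found in none of the 5 windows, and GGAATG (14.7%) was found in Col4a6 alone. The Col4a4 window held none of these 6 motifs. Motifs were counted apart, whether or not matches overlapped.

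Levels are given in CPM, estimated read counts scaled to a common library size within each cell type, so that CPM of oocytes and of granulosa cells stand on separate scales. Total counts ran from 14244057 to 18399462 per oocyte library and from 16432256 to 22430951 per granulosa cell library, so that a library with no count of a gene allows up to 0.211 CPM (3 counts) in the shallowest. The 12 oocyte markers summed to 17846 to 29387 CPM in oocyte libraries, against 0 to 3.96 CPM in granulosa cell libraries. The 12 granulosa markers summed to 61.2 to 2440 CPM in oocyte libraries, with the highest value in control library 2, against 17181 to 33054 CPM in granulosa cell libraries. Granulosa cell libraries 1 and 2 of the blebbistatin group stood apart by the macrophage lysozyme gene Lyz2, at 373 and 648 CPM, against 0 CPM in libraries 3 and 4. Library 1 of that group also had the fewest genes detected of the granulosa cell libraries, 14538.

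Oocytes and granulosa cells differed in the shares of the 6 chains. Levels were set side by side between genes per kb of coding sequence, of 5007 to 5121 bases per chain. Untranslated regions were left out of that length, so this comparison is approximate. On this scale Col4a3 made up most of the type IV collagen mRNA of every oocyte library. In control granulosa cells Col4a5 had the highest mean share, with Col4a2 above it in libraries 1 and 4, and Col4a3 was a minor chain. Col4a3 took 83.9 ± 5.1% of the 6 chains in oocytes with blebbistatin, 83.1 ± 6.0% with dextran and 78.6 ± 6.1% in control oocytes (SD, n = 4 each). In granulosa cells its share was 7.49 ± 4.93% with blebbistatin, 14.9 ± 3.6% with dextran and 7.73 ± 3.07% in controls. Col4a5 took 7.88 ± 3.59% in granulosa cells with blebbistatin, 29.5 ± 8.3% with dextran and 34.7 ± 10.2% in controls, and at most 2.65% in any oocyte library.

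**Figure D1:**
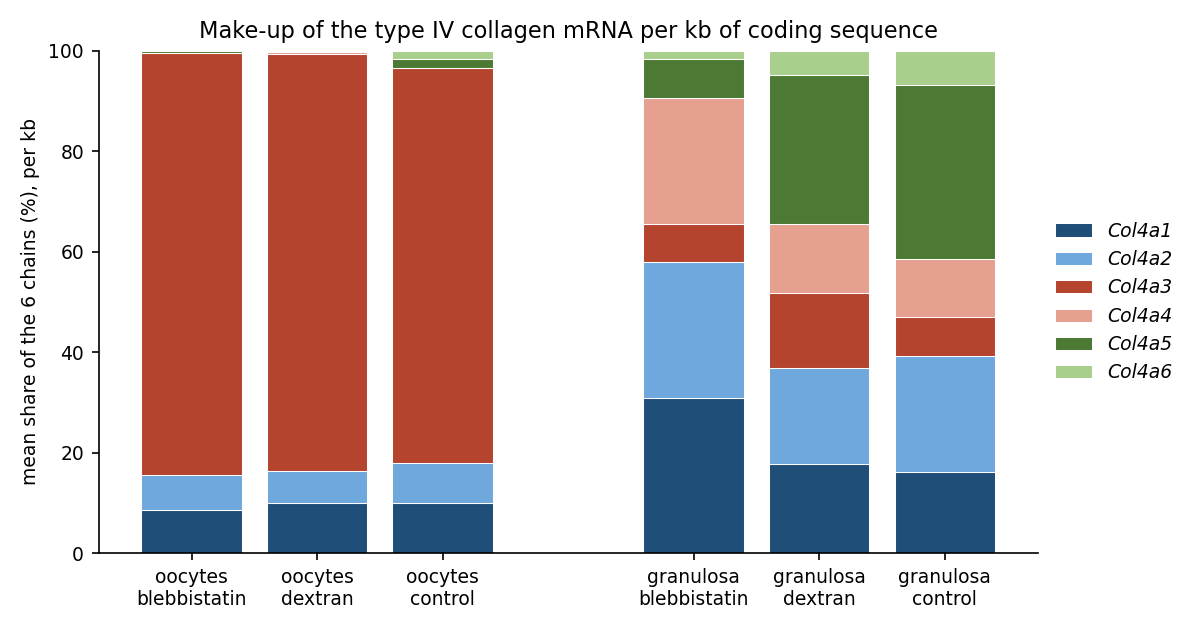
Mean share of each chain in the type IV collagen mRNA (y axis, percent of the summed CPM per kb of coding sequence, 4 libraries per bar) in oocytes and granulosa cells with blebbistatin, dextran or control medium. Col4a3 fills 78.6% to 83.9% of the oocyte bars and 7.49% to 14.9% of the granulosa cell bars, where Col4a1, Col4a2, Col4a4 and Col4a5 are all visible.

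In control oocytes the order of the levels per kb was Col4a3 (5.70 ± 1.67 CPM per kb), Col4a1 (0.714 ± 0.338), Col4a2 (0.630 ± 0.484), Col4a5 (0.141 ± 0.10), Col4a6 (0.109 ± 0.093) and Col4a4 (0.011 ± 0.021). The lowest library of Col4a3, at 4.28 CPM per kb, lay above the highest of Col4a1, at 0.923, and each later neighbour overlapped the one before it. In control granulosa cells the order was Col4a5 (3.14 ± 0.71 CPM per kb), Col4a2 (2.63 ± 2.02), Col4a1 (1.97 ± 1.72), Col4a4 (1.08 ± 0.58), Col4a3 (0.690 ± 0.226) and Col4a6 (0.618 ± 0.299). No neighbours in that order differed beyond their spread, while every Col4a5 library lay above every Col4a4, Col4a3 and Col4a6 library. With dextran it was Col4a5 (3.21 ± 0.59 CPM per kb), Col4a2 (2.31 ± 1.34), Col4a1 (2.16 ± 1.35), Col4a3 (1.76 ± 0.82), Col4a4 (1.57 ± 0.71) and Col4a6 (0.580 ± 0.406), and all neighbours overlapped. With blebbistatin the order was Col4a1 (16.1 ± 14.4 CPM per kb), Col4a2 (12.1 ± 7.3), Col4a4 (12.1 ± 10.5), Col4a3 (3.10 ± 3.06), Col4a5 (3.04 ± 1.48) and Col4a6 (0.454 ± 0.438), and only Col4a5 and Col4a6 did not overlap as neighbours.

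The difference between oocytes and granulosa cells was tested in control cultures, in 1 fit over all 24 libraries. Of the 20601 genes tested, 77.3% passed an adjusted p of 0.05 (edgeR's quasi-likelihood test with Benjamini-Hochberg adjustment), 44.4% higher and 32.9% lower in oocytes, and the median log2 difference of all genes was 0.41. Of the 6 chains, 5 passed, 1 higher and 4 lower in oocytes, a share close to that background.

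Col4a3 was the chain that was higher in oocytes. It had 24.4, 40.4, 28.0 and 21.4 CPM in control oocyte libraries 1 to 4, against 2.71, 2.71, 3.29 and 5.10 CPM in control granulosa cell libraries. Every oocyte library was above every granulosa cell library, with a log2 difference of 3.42 ± 0.50 (SE, 95% interval 2.37 to 4.47, adjusted p = 3.58e-06, edgeR). Over all groups Col4a3 averaged 33.2 ± 5.6 CPM in oocytes with blebbistatin, 31.6 ± 5.5 with dextran and 28.5 ± 8.3 in control oocytes, and 15.5 ± 15.3, 8.82 ± 4.10 and 3.45 ± 1.13 CPM in granulosa cells with blebbistatin, with dextran and in controls (SD, n = 4 each). The 3 oocyte groups overlapped each other. Granulosa cell library 3 with blebbistatin, at 38.4 CPM, lay within the numeric range of the oocytes. The cell types stand on separate CPM scales, so that comparison is approximate. An antisense gene, C430014B12Rik, overlaps 563 of the 9967 exon bases of Col4a3 in GENCODE M21 and had 10.1 to 12.9 CPM in oocytes, against 0.70 to 5.69 CPM in granulosa cells. Whether the counting used strand is not given in the sources used here, so reads of the 2 genes cannot be told apart in the shared bases.

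Col4a4, the partner of Col4a3 in its heterotrimer, was scarce in the same oocytes. It had 0, 4, 0 and 0 counts in control oocyte libraries 1 to 4, against 3.60, 5.61, 3.11 and 9.54 CPM in control granulosa cell libraries. The 4 counts of oocyte library 2 stood for 0.212 CPM, below every granulosa cell library, and the log2 difference was -6.03 ± 1.00 (SE, adjusted p = 1.70e-05, edgeR), or -9.49 without oocyte control library 2, a value that depends on the prior count since the other 3 libraries were at 0. With blebbistatin the oocyte libraries had 0, 0, 0 and 2 counts and with dextran 4, 0, 3 and 0 counts. In 8 of the 12 oocyte libraries the level of Col4a4 could be given only as an upper limit at this depth.

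Col4a5, which joins both of the restricted heterotrimers, was also lower in oocytes. It had 0.602, 1.22, 0.986 and 0.060 CPM in control oocyte libraries 1 to 4, against 17.0, 13.2, 13.0 and 20.5 CPM in control granulosa cell libraries. The groups did not overlap, and the log2 difference was -4.07 ± 0.75 (SE, 95% interval -5.64 to -2.49, adjusted p = 5.66e-05, edgeR). Col4a6, its neighbour on chromosome X, had 1.14, 0.636, 0.431 and 0 CPM in control oocytes, against 2.01, 3.12, 2.13 and 5.28 CPM in control granulosa cells. These groups did not overlap either, with a log2 difference of -2.10 ± 0.91 (SE, adjusted p = 0.0419, edgeR), which lost its call in 7 of the alternative fits.

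Col4a1 and Col4a2, the chains of the common heterotrimer, were present in both cell types. Col4a2 had 0.669, 6.62, 2.77 and 2.83 CPM in control oocyte libraries 1 to 4, against 23.8, 4.03, 5.10 and 20.9 CPM in control granulosa cell libraries. The groups overlapped through oocyte library 2, and the log2 difference of -1.67 ± 0.69 (SE, adjusted p = 0.0340, edgeR) lost its call in 7 of the alternative fits. Col4a1 did not pass, at 1.07, 4.03, 4.62 and 4.58 CPM in control oocytes, against 17.0, 1.94, 2.92 and 17.6 CPM in control granulosa cells (log2 difference -1.13 ± 0.75, SE, 95% interval -2.69 to 0.44, adjusted p = 0.171, edgeR). In both genes the control granulosa cells fell into 2 high libraries, 1 and 4, and 2 low ones, 2 and 3. Libraries 1 and 4 also had the higher sums of theca and stroma markers, 285 and 445 CPM, against 41.2 and 83.2 CPM in libraries 2 and 3, and the part of this in the level of Col4a1 and Col4a2 was not tested. In oocytes the theca and stroma markers summed to 1.29 to 7.68 CPM, with Col3a1, Cxcl12, Lum and Tcf21 at 0 in all 3 groups.

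The genes that process, accompany, bind and degrade type IV collagen were also compared between the cell types, where 77.3% of all genes passed, as did 19 of 21, 16 of 18, 7 of 8 and 7 of 9 members of the 4 lists. Of 21 genes for chain maturation and network cross-linking, 19 passed, of which 18 were lower and 1 higher in control oocytes, and the list had a median log2 difference of -3.59 against 0.41 for all genes. Serpinh1, the collagen chaperone HSP47, averaged 55.1 ± 85.7 CPM in oocytes and 1731 ± 226 CPM in granulosa cells, and Pxdn, the peroxidasin that cross-links the network, 0.317 ± 0.285 and 44.8 ± 21.6 CPM (adjusted p = 0.00164 and 4.94e-07, edgeR). Mia2, whose product helps collagens leave the endoplasmic reticulum, was the 1 member higher in oocytes, at 85.4 ± 3.5 CPM, against 48.2 ± 4.8 CPM in granulosa cells.

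Of 18 other basement membrane genes tested out of 20, 5 were higher and 11 lower in control oocytes. Among the higher ones were Lamb1 and Lama5, which encode laminin chains. Lamb1 averaged 668 ± 52 CPM in oocytes, against 42.4 ± 24.8 CPM in granulosa cells (log2 difference 4.33 ± 0.41, SE, adjusted p = 6.46e-09, edgeR), and Lama5 14.5 ± 4.3 CPM in oocytes, against 0.209 ± 0.243 CPM in granulosa cells. Among the lower ones were Lama1, another laminin chain (log2 difference -3.22 ± 0.36), and Hspg2, the proteoglycan perlecan (-4.65 ± 1.11). Of 8 collagen IV receptor genes, 3 were higher and 4 lower, with Itgb1, the common beta subunit of the collagen-binding integrins, at 51.8 ± 19.8 CPM in oocytes and 260 ± 26 CPM in granulosa cells. Of 9 degradation genes tested out of 12, 2 were higher and 5 lower, and Mmp2, a gelatinase that cleaves type IV collagen, was one of the higher ones, at 57.4 ± 6.3 CPM in oocytes and 12.1 ± 13.4 CPM in granulosa cells.

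In granulosa cells with blebbistatin, Col4a1, Col4a2, Col4a3 and Col4a4 were higher in all 4 libraries than in any control library, while Col4a5 and Col4a6 overlapped the controls. These are the values that led to the choice of the chains and are given with no test. Over all 15370 genes tested, 0.00651% passed an adjusted p of 0.05 (edgeR), and 2.46% were higher without overlap. Against dextran, 0% passed and 1.84% were higher without overlap, as were Col4a2 and Col4a4 of the 6 chains. Of the signs of RNA quality, mitochondrial genes took 3.86% to 9.53% of counts with blebbistatin, 3.41% to 4.82% with dextran and 2.60% to 4.51% in controls. The number of genes detected was 14538 to 21042 with blebbistatin, 21576 to 22485 with dextran and 20730 to 24297 in controls. Their part in the levels of the chains was not tested.

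Col4a4 had 138, 20.0, 51.2 and 35.4 CPM in blebbistatin libraries 1 to 4, against 3.60, 5.61, 3.11 and 9.54 CPM in control libraries. The lowest blebbistatin library stood above the highest control, and library 1 above all others, with a log2 change of 3.49 ± 0.61 (SE, n = 4 each) over controls. The change was 2.72 without blebbistatin library 1. Against dextran, where Col4a4 had 6.52, 6.39, 5.46 and 13.3 CPM, it was 2.95 ± 0.59, again with no overlap.

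Col4a1 had 179, 20.0, 89.0 and 34.8 CPM in blebbistatin libraries 1 to 4, against 17.0, 1.94, 2.92 and 17.6 CPM in control libraries. The groups were close at their edges, with blebbistatin library 2 just above control library 4, and the log2 change was 3.04 ± 0.85 (SE), or 2.31 without blebbistatin library 1. Against dextran, at 7.83, 20.5, 5.13 and 9.83 CPM, the groups overlapped through dextran library 2, with a log2 change of 2.90 ± 0.84. Col4a2 had 105, 25.7, 81.3 and 35.9 CPM with blebbistatin, against 23.8, 4.03, 5.10 and 20.9 CPM in controls, a log2 change of 2.21 ± 0.66 (SE). Its dextran libraries, at 9.64, 21.6, 5.51 and 10.6 CPM, all lay below the blebbistatin libraries (log2 change 2.39 ± 0.67).

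Col4a3 had 9.22, 6.95, 38.4 and 7.39 CPM with blebbistatin, against 2.71, 2.71, 3.29 and 5.10 CPM in controls. Library 3 stood far above the other 3 of its group, and the log2 change of 2.17 ± 0.61 (SE) was 1.18 without it. Against dextran, at 4.76, 11.5, 5.93 and 13.1 CPM, the groups overlapped, and the log2 change of 0.81 ± 0.58 turned to -0.17 without blebbistatin library 3.

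Col4a5 had 26.2, 11.4, 14.5 and 9.43 CPM with blebbistatin, against 17.0, 13.2, 13.0 and 20.5 CPM in controls, with a log2 change of -0.05 ± 0.32 (SE, 95% interval -0.78 to 0.68). Its highest and its lowest library were both blebbistatin libraries, 1 and 4. Col4a6 had 0.217, 3.50, 4.82 and 0.661 CPM with blebbistatin, against 2.01, 3.12, 2.13 and 5.28 CPM in controls, and the blebbistatin libraries lay on both sides of the controls (log2 change -0.44 ± 0.85, SE, 95% interval -2.36 to 1.47).

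**Figure D2:**
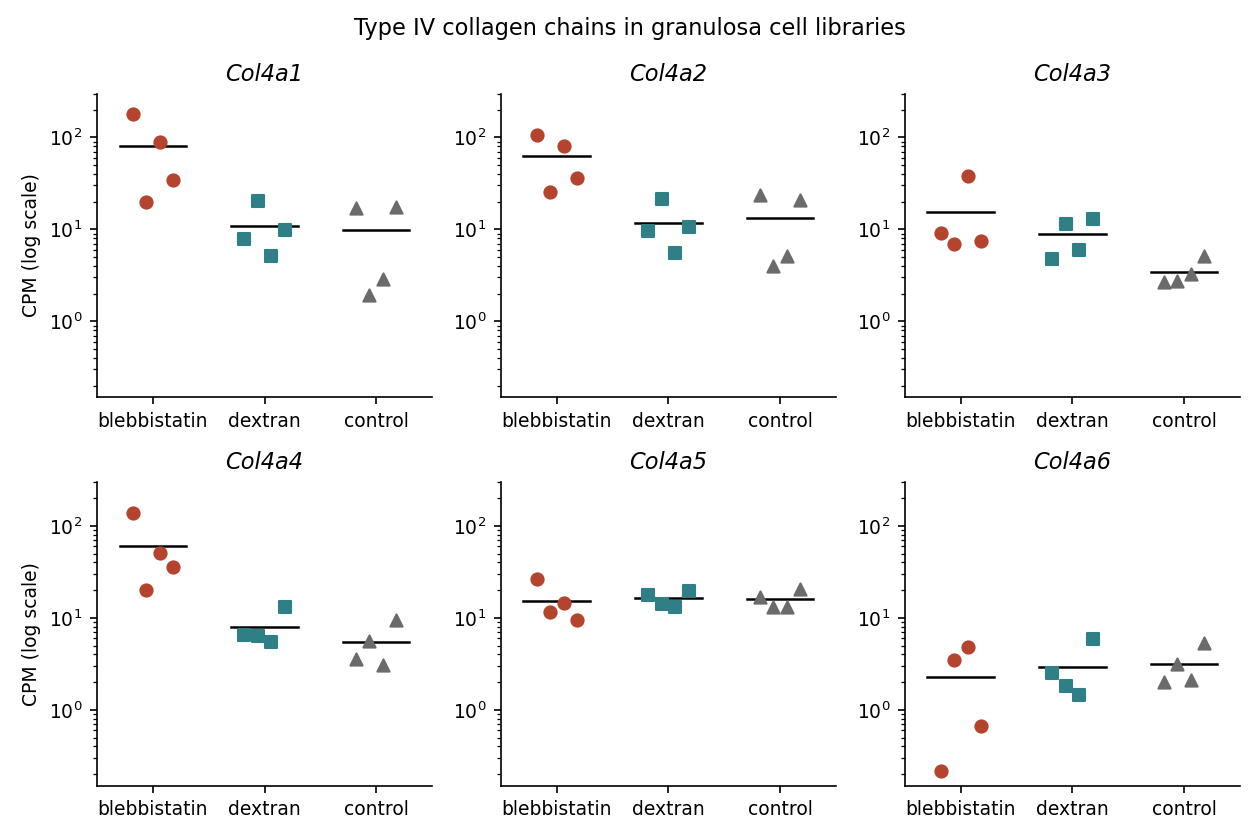
CPM of each chain (y axis, log scale) in every granulosa cell library with blebbistatin, dextran or control medium (x axis, 4 libraries each), with lines at the group means. For Col4a4 all blebbistatin libraries, from 20.0 to 138 CPM, lie above all dextran and control libraries, and for Col4a5 all libraries lie between 9.43 and 26.2 CPM, with the 3 groups overlapping.

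The ratio of the partners in a pair varied between libraries. Raw counts of Col4a1 over Col4a2 were at a ratio of 0.780 to 1.70 in blebbistatin granulosa cells, 0.813 to 0.952 in dextran and 0.483 to 0.845 in control granulosa cells. Col4a3 over Col4a4 was at 0.0669 to 0.751 with blebbistatin, 0.731 to 1.80 with dextran and 0.484 to 1.06 in controls. The lowest ratio, in blebbistatin library 1, came with the highest Col4a4 of all libraries, while Col4a3 was highest in blebbistatin library 3. The summed level of the 6 chains was 17.3 to 90.8 CPM per kb with blebbistatin, against 5.83 to 15.6 CPM per kb in control granulosa cells.

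Over the 12 granulosa cell libraries, the gene of 10309 whose log2(CPM + 1) was most like that of Col4a1 was Col4a2, at Pearson's r = 0.989, followed by Sparc (0.959), Fgl2 (0.957), Gsn (0.943) and Cryab (0.943). The libraries share their treatment, so r describes these libraries only. Sparc, a matricellular protein that binds collagens, averaged 574 ± 364 CPM with blebbistatin, 167 ± 41 with dextran and 108 ± 54 CPM in controls. Genes were ranked where their mean over the 12 libraries was at least 5 CPM, which a gene can pass through the blebbistatin group alone, as Piezo2 and Itpripl2 did. For Col4a4 the 5 most alike were Rae1 (0.938), Ufl1 (0.937), Piezo2 (0.937), Itpripl2 (0.934) and Kif2a (0.931), and Piezo2, a mechanosensitive ion channel, averaged 12.3 ± 11.2 CPM with blebbistatin, 3.6 ± 1.9 with dextran and 2.1 ± 2.0 CPM in controls. Col4a1 ranked 30 in likeness to Col4a4, Col4a2 ranked 66, Col4a3, its neighbour on chromosome 1, ranked 833, and Col4a5 ranked 3173.

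Markers of cells outside the basal lamina were also summed in the granulosa cells, and both sums below overlapped between blebbistatin and control libraries. The 14 theca and stroma markers summed to 1295, 365, 871 and 394 CPM in blebbistatin libraries 1 to 4, 203, 437, 46.6 and 47.2 CPM in dextran libraries, and 285, 41.2, 83.2 and 445 CPM in control libraries. The 10 smooth muscle and pericyte markers summed to 600, 131, 383 and 169 CPM with blebbistatin, at most 53.3 CPM with dextran, and 193, 26.0, 44.1 and 29.0 CPM in controls. Most of this sum was Acta2, at 475, 102, 275 and 126 CPM in blebbistatin libraries 1 to 4, so its order is mainly that of Acta2. In control libraries 1 to 4 Acta2 was at 146, 14.3, 29.7 and 22.7 CPM. Control library 1 thus lay above blebbistatin libraries 2 and 4. Blebbistatin library 1 had counts for 5 of the 10 markers. In both sums library 1 was highest, then 3, 4 and 2, which is the order of the 4 blebbistatin libraries for Col4a1, Col4a2 and Col4a4. Of the 12 stroma genes tested, 11 had a positive log2 change over controls, with a median of 1.12 against -0.05 for all genes, and of 7 smooth muscle genes 6 did, with a median of 2.20. None of the 19 passed an adjusted p of 0.05 (edgeR), and Rgs5 was at 0 in all 3 groups. An unadjusted p under 0.05 was found for 4 stroma and 3 smooth muscle genes (edgeR), a larger share than the 10.4% of all genes. These lists were chosen with earlier results of these data known, so the share is a description only. The level of Col1a1, a fibrillar collagen of stroma, was 447, 96.7, 305 and 96.5 CPM with blebbistatin, against 94.0, 2.98, 5.75 and 78.4 CPM in controls. The Col1a1 groups were close at their edges, and not all stroma markers were apart in this way. Col3a1 was at 25.0 to 104 CPM with blebbistatin and 0.814 to 73.5 CPM in controls, and Dcn at 1.38 to 13.4 CPM and 0 to 22.4 CPM.

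Granulosa markers summed to 17181 to 22314 CPM with blebbistatin, 23059 to 29763 CPM with dextran and 26262 to 33054 CPM in controls, and 11 of the 12 had a negative log2 change with blebbistatin. Their median log2 change was -0.62. Of the 12, 7 were lower at an unadjusted p under 0.05, against 10.4% of all genes, and none passed an adjusted p of 0.05 (edgeR). This list too was chosen with earlier results known. Immune markers summed to 640, 969, 2.79 and 4.27 CPM in blebbistatin libraries 1 to 4, at most 3.18 CPM in dextran and at most 11.8 CPM in control libraries. Endothelial markers summed to 16.8 to 41.4 CPM with blebbistatin, 6.93 to 20.0 CPM with dextran and 14.3 to 27.9 CPM in controls, with Cldn5 at 0 in all 3, and surface epithelium markers to at most 2.22 CPM in any granulosa cell library. Without blebbistatin libraries 1 and 2, where Lyz2 was high, the log2 change over controls was 3.00 for Col4a4, 2.67 for Col4a1, 2.14 for Col4a2 and 2.75 for Col4a3. Without libraries 1 and 3, where the stromal sums were highest, it was 2.36 for Col4a4, 1.49 for Col4a1, 1.21 for Col4a2 and 1.07 for Col4a3. These libraries were also the highest of their group for each of these chains, so a smaller change without them was fixed in advance. Both omissions were chosen after seeing the data. In these pooled samples more cells of a type and more RNA per cell cannot be told apart, and the part of stromal cells in the levels of the chains was not tested.

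**Figure D3:**
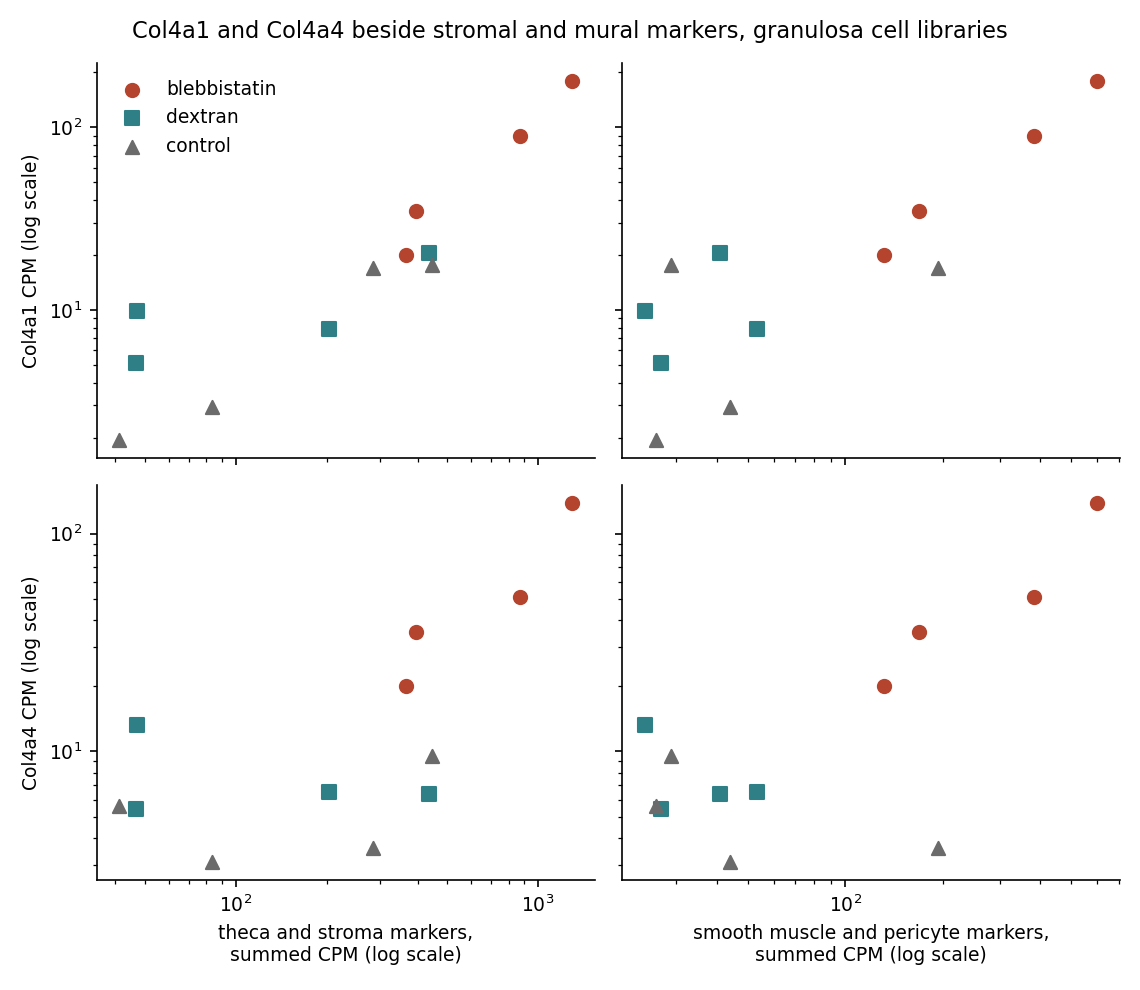
CPM of Col4a1 (upper row) and Col4a4 (lower row, y axes, log scale) against the summed CPM of theca and stroma markers (left) and smooth muscle and pericyte markers (right, x axes, log scale) in the 12 granulosa cell libraries. Among the 4 blebbistatin libraries both chains and both sums keep 1 order, from library 2, at 365 CPM of stroma markers and 20.0 CPM of Col4a4, to library 1, at 1295 and 138 CPM. Most of the smooth muscle sum is Acta2.

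The genes around type IV collagen gave no difference past the threshold with blebbistatin in granulosa cells. None of the 51 members tested in the 4 lists of chain maturation, other basement membrane proteins, receptors and degradation passed an adjusted p of 0.05 (edgeR). An unadjusted p under 0.05 was found for 12 higher and 7 lower ones, a larger share than the 10.4% of all genes. Since earlier results of these data were known when the lists were chosen, this share is a description only. By DESeq2, 4 maturation genes, 1 basement membrane gene, 1 receptor gene and 2 degradation genes passed, among 377 genes in all, and by limma voom none. In the maturation list of 21 genes, 10 had a positive log2 change, with a median of -0.04, and those of smallest p, Sparc (log2 change 2.41 ± 0.49, adjusted p = 0.110, edgeR) and P3h2, a prolyl 3-hydroxylase (1.52 ± 0.36, adjusted p = 0.184), were above all control libraries in every blebbistatin library. Of 16 other basement membrane genes 8 were positive, among them Tinagl1 at 39.1 ± 33.6 CPM with blebbistatin and 3.84 ± 3.32 CPM in controls, and Fbln1, fibulin 1, was at 144 ± 53 and 259 ± 18 CPM. Of 6 receptor genes 3 were positive, with Ddr2, a collagen receptor tyrosine kinase, at 43.1 ± 21.5 CPM with blebbistatin and 5.51 ± 4.11 CPM in controls (adjusted p = 0.216, edgeR). Of 8 degradation genes 6 were positive, with a median log2 change of 1.10, and Timp3, an inhibitor of metalloproteinases, was at 122 ± 116 CPM with blebbistatin and 14.5 ± 13.2 CPM in controls (adjusted p = 0.259, edgeR).

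Dextran changed none of the chains in granulosa cells past the threshold. This comparison was not used to choose the chains, though it shares its controls with the one that was. Of 15370 genes 0% passed an adjusted p of 0.05 (edgeR), and 523 genes (3.4%) had an unadjusted p under 0.05, while DESeq2 passed 42 genes and limma voom 0, none of them a chain. All 6 chains overlapped between dextran and control libraries, where 4.71% of genes did not overlap.

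Col4a3 came nearest, at 4.76, 11.5, 5.93 and 13.1 CPM in dextran libraries 1 to 4, against 2.71, 2.71, 3.29 and 5.10 CPM in control libraries. Dextran library 1 lay below control library 4 and the other 3 above all controls, with a log2 change of 1.35 ± 0.59 (SE, 95% interval 0.01 to 2.70, unadjusted p = 0.0418, adjusted p = 1.00, edgeR). The change of Col4a4 was 0.54 ± 0.56 (95% interval -0.74 to 1.81), of Col4a1 0.14 ± 0.79 (-1.66 to 1.94), of Col4a2 -0.18 ± 0.64 (-1.63 to 1.26), of Col4a5 0.03 ± 0.32 (-0.70 to 0.76) and of Col4a6 -0.09 ± 0.84. The interval was narrowest for Col4a5, which had 17.8, 14.3, 13.3 and 19.7 CPM in dextran libraries, against 17.0, 13.2, 13.0 and 20.5 CPM in controls. None of the 51 tested members of the 4 lists passed by edgeR, DESeq2 or limma voom, and 5 had an unadjusted p under 0.05, all higher, among them Tinagl1 at 14.7 ± 7.4 CPM with dextran and 3.84 ± 3.32 CPM in controls, and Ctsl, a lysosomal protease, at 2336 ± 266 and 1727 ± 388 CPM.

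In oocytes neither treatment moved the chains past the threshold. Of the 6 chains, Col4a1, Col4a2 and Col4a3 had enough counts to be tested. With blebbistatin 0% of 16749 genes passed an adjusted p of 0.05 (edgeR), 686 genes (4.1%) had an unadjusted p under 0.05, and DESeq2 passed 14 genes and limma voom 0. With dextran 0% passed, 890 genes (5.31%) had an unadjusted p under 0.05, and DESeq2 passed 4 genes and limma voom 0. No chain was among these by either tool, and all 3 chains overlapped between each treatment and control, where 2.61% of genes did not overlap with blebbistatin and 2.39% with dextran. Between blebbistatin and dextran oocytes 0% of genes passed by edgeR, DESeq2 or limma voom, with 682 genes (4.07%) at an unadjusted p under 0.05, and the log2 change of Col4a3 was 0.07 ± 0.21 (SE).

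Col4a3, the main chain of oocytes, had 36.2, 34.2, 25.1 and 37.6 CPM in blebbistatin libraries 1 to 4 and 39.0, 28.7, 26.4 and 32.4 CPM in dextran libraries, against 24.4, 40.4, 28.0 and 21.4 CPM in control libraries. The highest library of all was control library 2. The log2 change was 0.22 ± 0.21 with blebbistatin (SE, 95% interval -0.25 to 0.69, adjusted p = 1.00, edgeR) and 0.15 ± 0.21 with dextran (-0.32 to 0.62, adjusted p = 0.999).

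Col4a1 had 4.59, 0.828, 5.32 and 2.30 CPM in oocytes with blebbistatin and 4.75, 5.55, 2.73 and 2.22 CPM with dextran, against 1.07, 4.03, 4.62 and 4.58 CPM in control oocytes. Col4a2 had 3.23, 3.11, 1.88 and 3.09 CPM with blebbistatin and 3.56, 4.05, 0.546 and 2.37 CPM with dextran, against 0.669, 6.62, 2.77 and 2.83 CPM in control oocytes. Both varied as much within a group as between groups. The log2 changes with blebbistatin were -0.13 ± 0.54 for Col4a1 and -0.19 ± 0.60 for Col4a2 (SE), and with dextran 0.09 ± 0.54 and -0.30 ± 0.60.

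Col4a5 and Col4a6 were scarce in oocytes of all groups and were mostly counted in control libraries. Col4a6 had 0, 1, 1 and 1 counts with blebbistatin and 1, 0, 0 and 0 counts with dextran, against 17, 12, 7 and 0 counts in control libraries 1 to 4. Col4a5 had 1, 3, 0 and 4 counts with blebbistatin and 1, 0, 0 and 5 counts with dextran, against 9, 23, 16 and 1 counts in controls. Control libraries 1 to 3 stood above all treated libraries for both genes, and control library 4 did not. With no filter on low counts (37321 genes) Col4a6 had an unadjusted p of 0.0314 with blebbistatin and 0.00752 with dextran, and an adjusted p of 0.728 and 0.697 (edgeR). Col4a5 had an unadjusted p of 0.0681 with blebbistatin and 0.0439 with dextran, at the same adjusted values. Granulosa markers summed to 88.3 to 391 CPM in oocytes with blebbistatin and 61.2 to 148 CPM with dextran, against 587, 2440, 116 and 78.7 CPM in control oocyte libraries 1 to 4, and their part in these counts was not tested.

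**Figure D4:**
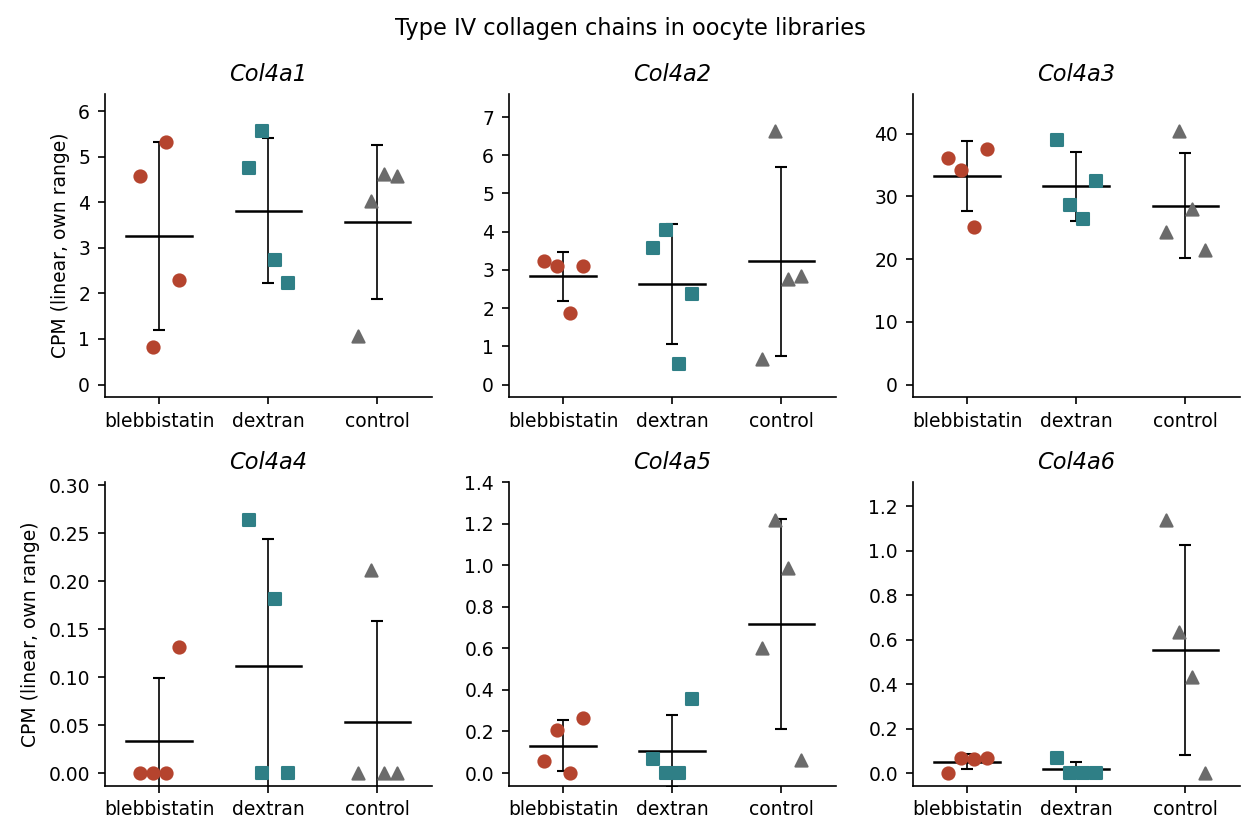
CPM of each chain (y axis, linear, a range of its own per panel) in every oocyte library with blebbistatin, dextran or control medium (x axis, 4 libraries each), with lines at the group means and bars of 1 SD, cut off at the lower axis. Col4a3 lies between 21.4 and 40.4 CPM in all 3 groups, and Col4a5 and Col4a6 are above 0.4 CPM in control libraries 1 to 3 alone.

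Of the pathway lists in oocytes, 37 members were tested and none passed with either treatment by edgeR, DESeq2 or limma voom. With blebbistatin 1 higher and 2 lower members of the 37 had an unadjusted p under 0.05, against 4.1% of all genes, and with dextran 4 lower ones, against 5.31% of all genes. Fbln1 was at 1.67 ± 0.85 CPM with blebbistatin and 7.94 ± 9.03 CPM in control oocytes, and Serpinh1 at 1.16 ± 0.97 CPM with dextran and 55.1 ± 85.7 CPM in control oocytes, where the SD exceeded the mean. The granulosa marker sums of these oocyte libraries are those given above, and their part in these values was not tested either.

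The response of the chains was also set against the cell type. For the difference between oocytes and granulosa cells in the log2 change with blebbistatin, 0.0485% of 20601 genes passed an adjusted p of 0.05 (edgeR). It holds the contrast that chose the chains, so theirs is given with no test. It was -3.21 ± 1.07 for Col4a1, -2.51 ± 0.97 for Col4a2 and -2.05 ± 0.65 for Col4a3 (SE), and for Col4a3 -1.08 without blebbistatin granulosa cell library 3. For dextran the difference was tested, and 0% of 20601 genes passed an adjusted p of 0.05 (edgeR), with 1912 genes (9.28%) at an unadjusted p under 0.05, 210 genes by DESeq2 and 0 by limma voom, no chain among them. For Col4a3 it was -1.32 ± 0.65 (SE, 95% interval -2.69 to 0.04, adjusted p = 0.551, edgeR), so the test did not separate the cell types. Col4a5 and Col4a6 had an unadjusted p under 0.05 and an adjusted p of 0.400 and 0.336 (edgeR), on the few oocyte counts given above.

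**Figure D5:**
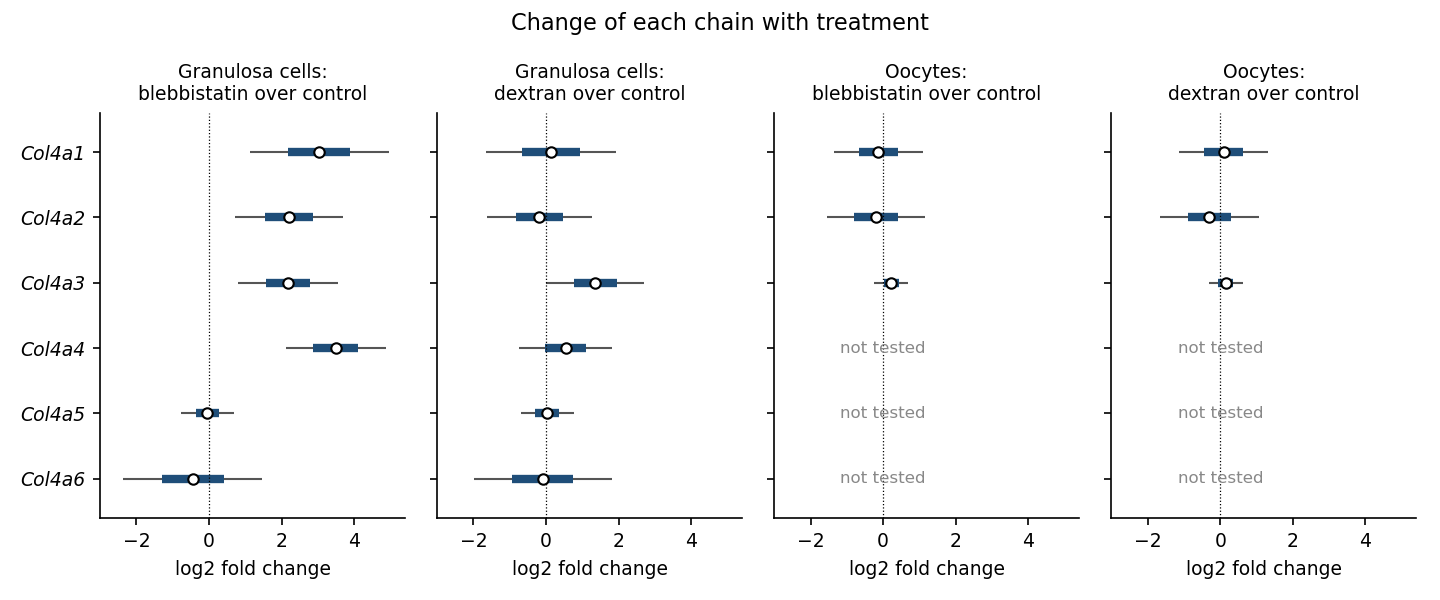
Log2 fold change of each chain (x axis) over control with blebbistatin or dextran in granulosa cells and oocytes, from the fit over the 12 libraries of each cell type, with thick bars of 1 SE and thin lines of the 95% interval. With blebbistatin in granulosa cells Col4a1 to Col4a4 lie at 2.17 to 3.49 and Col4a5 and Col4a6 near 0, and in the other 3 comparisons the changes lie between -0.30 and 1.35. The blebbistatin comparison in granulosa cells led to the choice of the chains, so its bars and intervals are a description and no test.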

How the data were processed

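RNA was extracted from whole oocytes or pooled granulosa cells and amplified with 15 PCR cycles, per the labels' protocols. The authors deposited 1 table of salmon estimated counts per gene for each cell type, with build GRCm39 named per the submitters' processing notes; for strand use, duplicate removal and molecular identifiers the sources used here give nothing. Limits on counts of 0 therefore cover counting error only.

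The estimated counts were rounded to whole numbers, filtered with filterByExpr and scaled by TMM. Each cell type was fitted over its 12 libraries with edgeR 4.0.16 in R 4.3.3 (robust quasi-likelihood test, Benjamini-Hochberg adjustment over all genes tested, threshold 0.05), and oocytes against granulosa cells over all 24 libraries. Each SE was derived as the absolute log2 change over the square root of edgeR's F statistic, so it is approximate, most of all near 0 counts. Intervals are the log2 change plus or minus its SE times a t quantile at 95%. CPM per kb used the coding length in GENCODE M21, an annotation of build GRCm38 used for names, lengths and neighbours alone. Depth ran from 14244057 to 22430951 counts per library. The lowest chi-square per gene between replicates of a group was 12.4, so no 2 replicates were duplicates; pairs across groups were not compared.

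The alternatives were limma 3.58.1 (voom), DESeq2 1.42.0, other size factors, no filter, only the groups compared, unscaled totals, a replicate block and leaving out libraries. The chains and the 11 gene lists were chosen with earlier results of these data known. Beside the chains, the genes named were the 5 most alike in pattern to Col4a4 and to Col4a1, members of the lists that passed the threshold or had the smallest p of their list, and markers; of the many that passed between oocytes and granulosa cells, the examples were picked after their values were seen. The fits were tested on simulated counts. Some members of the lists are not reported here by name.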

Additional observations from a re-analysis of the deposited data

Results flagged for a closer look

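In 4 of the 27 combinations of a chain and a group that were checked, 1 library lay far from the other 3 of its group, where chance gives about 1 in 20. Col4a3 had 38.4 CPM in granulosa cell library 3 with blebbistatin, against 6.95 to 9.22 CPM in the other 3. Col4a4 had 13.3 CPM in granulosa cell library 4 with dextran, against 5.46 to 6.52 CPM in the others. Among oocytes, Col4a2 had 1.88 CPM in blebbistatin library 3, against 3.09 to 3.23 CPM in the others. Col4a1 had 1.07 CPM in control oocyte library 1, against 4.03 to 4.62 CPM in the others.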

How the results depend on the processing

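The log2 change of Col4a4 with blebbistatin in granulosa cells is the value that led to the choice of the chains. Blebbistatin and control libraries did not overlap, so leaving out libraries could not turn its sign. The change stayed positive under the other alternatives as well. It was 2.72 without blebbistatin library 1, and 2.36 without libraries 1 and 3 together, an alternative added after seeing the data; against dextran it was then 1.82. For Col4a3 the difference between the cell types in the blebbistatin response ranged from -2.30 to -1.08 when each library was left out. The number of chains called between oocytes and granulosa cells was 5, 3 with no filter on low counts, and 3 to 5 when each library was left out. Col4a3, Col4a4 and Col4a5 kept their calls under all alternatives, while Col4a2 (adjusted p up to 0.156) and Col4a6 (up to 0.109) lost theirs under 7 each; the cause was not tested.

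Several changes that were never called turned sign. With dextran in granulosa cells Col4a2 was at 0.14 by limma voom and 0.075 with the replicate block, and leaving out each library gave -0.37 to 0.58 for Col4a1, -0.64 to 0.25 for Col4a2, -0.076 to 0.17 for Col4a5 and -0.69 to 0.27 for Col4a6. In oocytes with blebbistatin Col4a2 was at 0.10 by limma voom, and leaving out each library gave -0.46 to 0.19 for Col4a1 and -0.52 to 0.42 for Col4a2. With dextran these ranges were -0.21 to 0.28 and -0.63 to 0.32, and for blebbistatin against dextran -0.56 to 0.094 and -0.23 to 0.40. For the difference between cell types in the dextran response they were -0.57 to 0.49 for Col4a1, -0.58 to 0.53 for Col4a2 and -0.54 to 3.77 for Col4a4.

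The count of all genes called depended on the tool: with blebbistatin in granulosa cells it was 1 by edgeR and limma voom, 377 by DESeq2, 23 with no filter, 0 to 115 when each library was left out, and 26 without blebbistatin libraries 1 and 2. By edgeR and by DESeq2 it was 0 and 214 for blebbistatin against dextran, and 10 and 382 for the difference between cell types in the blebbistatin response. Between the cell types it was 15928, against 16229 by DESeq2. Over 60 same-numbered pairs of libraries the correlation of their deviations from the group means ranged from -0.171 to 0.216. Within a cell type, over 12 such pairs each, it ranged from -0.202 to 0.247 in granulosa cells and from -0.12 to 0.16 in oocytes. Pairs of unlike number were not compared, so whether the replicate numbers pair the libraries cannot be told. With the replicate block Col4a4 with blebbistatin was at 3.40 over controls and 2.88 over dextran, Col4a3 at -1.98 for the difference between cell types, and 4 chains were called between oocytes and granulosa cells, without Col4a6. Depth limited Col4a4, Col4a5 and Col4a6 in oocytes, where 3 counts stand for 0.163 to 0.211 CPM.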
